A study of Arabidopsis thaliana with 36 samples.

Results

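The subject is a set of 7 extensin-like cell wall genes of Arabidopsis thaliana, AT3G54580, AT5G06630, HRGP1, AT4G08410, AT1G23720, AT2G43150 and AT3G19430. The annotation of the array assigns 8 probe sets to them, of 22746 probe sets that are not controls. In all, 13286 genes had a probe set that names them alone. Of the 8, 7 name 1 gene each, and 1 lists AT4G08410 together with its near neighbour AT4G08400 and is called the shared probe set here. The genes were selected on their log2 differences between iron-free and complete medium in roots, which in earlier results of these data ran opposite ways in the ecotypes Kas and Tsu. The root iron differences are therefore a description with no test. Tests are given for shoots, whose arrays the choice did not use, for ecotype averages and for roots against shoots. The ecotype averages in roots and the comparison of roots with shoots are other contrasts, but they contain the root arrays of the choice.

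Extensins are hydroxyproline-rich glycoproteins of the plant cell wall. Their repeats of serine and proline are hydroxylated and decorated with arabinose and galactose, and tyrosines in many of them are joined by wall peroxidases, which ties the proteins into a network. Several family members are known from Arabidopsis root hairs, tubular outgrowths of the root epidermis that take up water and minerals and whose number and shape respond to iron supply. Of the 7 genes, the reference table used here gives a descriptive name to HRGP1 alone, a hydroxyproline-rich glycoprotein. The others carry a locus code only, so the name extensin-like could not be checked against an annotation.

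Roots and shoots of Kas (Kas-1) and Tsu (Tsu-1), which are natural inbred lines, were measured on 36 one-colour Affymetrix arrays in 12 groups of 3. Plants 24 d old, grown hydroponically on rockwool under a 16 h photoperiod, were moved to complete medium with 50 µM iron for 24 h, or to medium without iron for 24 h or 48 h. No group carries a mutation or a transgene. There was no 48 h group on complete medium, so in the 48 h comparisons time and lack of iron cannot be told apart. Separate plants or cultures are not stated in the labels for the arrays of a group, so p-values cover only the spread among these arrays, possibly technical.

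Rosettes are named in the extraction protocol of all samples, but roots and shoots in their titles, and marker levels followed the titles. The mean of 3 photosystem genes was at most 5.57 on root arrays and at least 11.69 on shoot arrays, while the root beta-glucosidase PYK10 stayed at or under 6.87 in shoots and reached 11.69 or more in every root sample. Ecotype was scored by an index over 53 probe sets, set to 0 at Tsu and 1 at Kas by the 48 h groups, which put 10 arrays more than 0.25 from their label. Among them were 7 root arrays, namely replicates 2 and 3 of Kas with iron (0.57 and 0.63), replicate 1 of Kas at 24 h without iron (0.57), replicate 3 of Tsu with iron (0.32) and all 3 of Tsu at 24 h without iron (0.46, 0.64 and 0.38). The other 3 were the Tsu shoot arrays at 24 h without iron (0.38, 0.53 and 0.42). Root iron differences and the averages by ecotype or tissue are also given without these arrays where arrays remained, while overlap counts and correlations rest on all arrays.

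In roots the group means of the 8 probe sets were higher without iron than with it in Kas and lower without it in Tsu, except for AT3G19430 in Tsu at 48 h. Values are log2 array signals, and levels are compared between arrays for 1 probe set at a time. In a bulk sample, fewer cells of a type and less RNA per cell cannot be told apart.

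AT3G54580 and HRGP1 (AT3G54590) are adjacent genes on chromosome 3. In Kas roots AT3G54580 read 5.48, 5.12 and 5.0 with iron. Without iron it read 5.90, 5.61 and 7.45 at 24 h and 8.06, 7.97 and 9.34 at 48 h. In Tsu roots it read 6.59, 9.46 and 8.07 with iron, then 5.12, 4.67 and 5.05 at 24 h without iron and 4.76, 4.97 and 5.75 at 48 h. Every Kas array without iron was above every Kas array with iron, and every Tsu array without iron was below every Tsu array with iron. The log2 differences, without minus with iron, were 1.12 and 3.25 in Kas at 24 h and 48 h and -3.09 and -2.88 in Tsu. HRGP1 read 8.14, 7.70 and 8.17 in Kas roots with iron, 8.45, 8.55 and 9.85 at 24 h without and 9.96, 10.24 and 11.13 at 48 h without. In Tsu roots it read 8.56, 11.38 and 10.32 with iron, 7.63, 7.24 and 7.76 at 24 h without and 7.49, 7.81 and 7.97 at 48 h without. Its groups did not overlap either, with differences of 0.95 and 2.44 in Kas and -2.54 and -2.33 in Tsu.

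AT4G08410 lies on chromosome 4 with 1 gene between it and AT4G08400. Its own probe set read 5.62, 5.64 and 5.33 in Kas roots with iron, 5.25, 5.83 and 7.83 at 24 h without iron and 7.45, 8.28 and 9.31 at 48 h. The Tsu root values were 5.86, 9.61 and 7.93 with iron, 5.51, 5.32 and 5.04 at 24 h without it and 4.60, 5.40 and 5.62 at 48 h. The Kas groups overlapped at 24 h, since 1 of the arrays without iron read 5.25, and did not overlap at 48 h, and the Tsu groups overlapped at neither time. The shared probe set read 2.51, 2.31 and 2.19 in Kas roots with iron, 2.55, 2.30 and 4.57 at 24 h without iron and 4.01, 4.72 and 6.55 at 48 h. On Tsu root arrays the same probe set read 2.71, 6.90 and 4.38 with iron, 2.29, 2.32 and 2.31 at 24 h without it and 1.97, 2.22 and 2.31 at 48 h. Values over 4 came from 6 root arrays, and the other 12 read 2.71 or less. On those 12 the shared probe set was dim, at or above only 3.78% to 22.8% of all probe sets of its array, so the sizes of its differences rest on values near the bottom of the scale. The Kas and Tsu differences at 48 h were 2.81 and -2.59 for AT4G08410 and 2.75 and -2.50 for the shared probe set.

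AT5G06630, on chromosome 5, is adjacent to AT5G06640. In Kas roots it read 7.25, 6.84 and 6.94 with iron, 7.45, 7.63 and 9.36 at 24 h without and 9.30, 9.71 and 10.80 at 48 h without. In Tsu roots it read 7.90, 10.10 and 9.20 with iron, 6.35, 6.04 and 6.14 at 24 h without and 6.15, 6.53 and 7.06 at 48 h without. No group overlapped its control, and the differences were 1.14 and 2.93 in Kas and -2.89 and -2.49 in Tsu. AT1G23720, on chromosome 1, read 6.94, 7.61 and 7.41 in Kas roots with iron, 7.54, 7.24 and 9.57 at 24 h without iron and 9.0, 9.22 and 10.53 at 48 h. The Tsu arrays read 8.57, 10.57 and 9.61 with iron, 7.50, 7.23 and 7.13 at 24 h without and 7.65, 7.60 and 8.19 at 48 h without. Its Kas groups overlapped at 24 h and its other groups did not, with differences of 2.26 in Kas and -1.77 in Tsu at 48 h.

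AT2G43150, on chromosome 2, read 3.65, 3.22 and 3.04 in Kas roots with iron, 4.05, 3.83 and 5.22 at 24 h without iron and 5.01, 5.25 and 6.02 at 48 h. The corresponding Tsu values were 4.19, 7.22 and 5.92 with iron, 3.81, 3.64 and 3.21 at 24 h without it and 3.71, 3.47 and 4.89 at 48 h. Only the Tsu groups at 48 h overlapped, through 1 array without iron at 4.89. AT3G19430, on chromosome 3, read 6.82, 6.84 and 6.74 in Kas roots with iron, 7.05, 7.14 and 7.50 at 24 h without and 7.76, 7.82 and 7.79 at 48 h without. In Tsu roots it read 7.37, 7.56 and 6.80 with iron, 5.28, 4.52 and 5.65 at 24 h without and 7.25, 6.80 and 8.17 at 48 h without. Its low values were those of Tsu at 24 h, and its Tsu groups at 48 h overlapped, with a difference of 0.16, so at 48 h it did not share the opposite pattern.

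**Figure D1:**
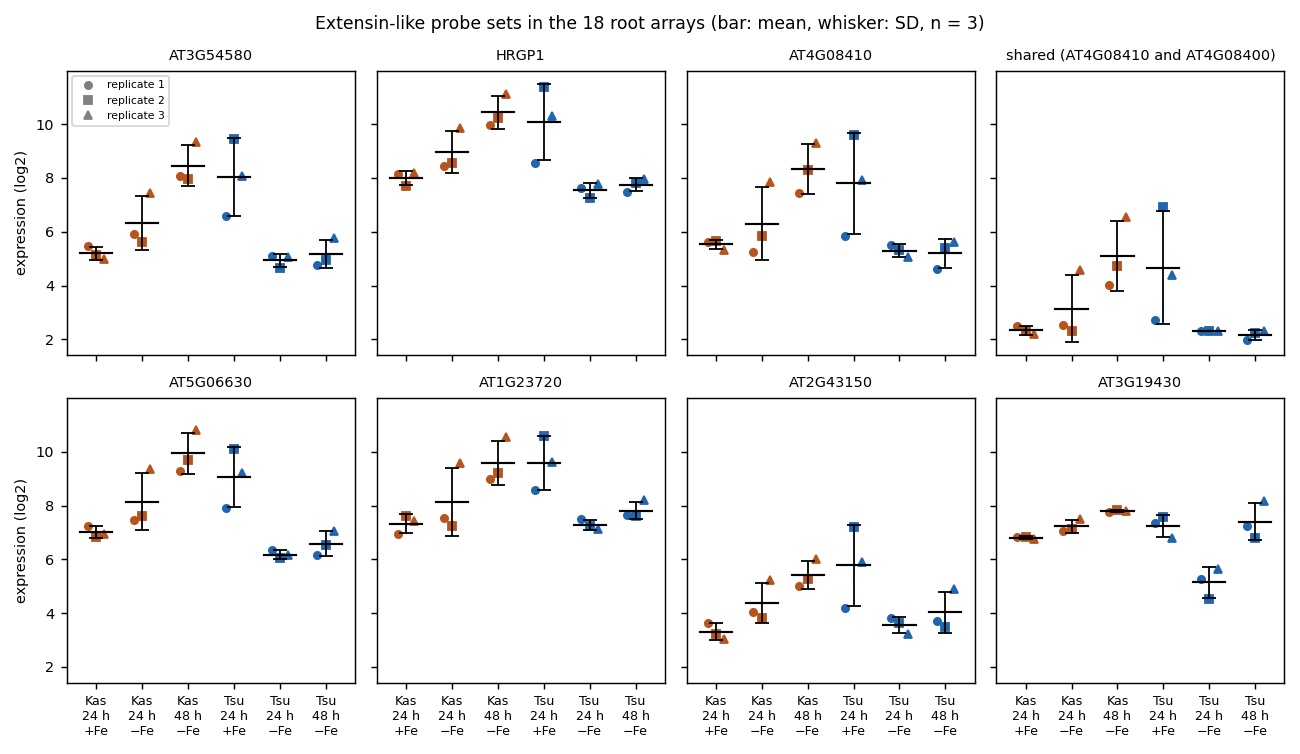
Log2 array value of each of the 8 extensin-like probe sets on the 18 root arrays, by group, with points for single arrays, bars for the mean and whiskers for the SD (n = 3). By group mean, Kas at 48 h without iron and Tsu with iron stand highest for 7 of the 8, and AT3G19430 is lowest in Tsu at 24 h without iron.

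Across the set, the arrays without iron were all above those with iron for 5 of 8 probe sets in Kas roots at 24 h, against 10.5% of all probe sets, and for 8 of 8 at 48 h, against 15.8%. In Tsu roots they were all below for 8 of 8 at 24 h, against 13.1%, and for 6 of 8 at 48 h, against 7.63%. Both at once, all above in Kas and all below in Tsu, held for 5 at 24 h (1.27% of all probe sets) and 6 at 48 h (2.04%). These counts describe the basis on which the genes were chosen. The median differences over the 8 were 0.88, 2.60, -2.43 and -2.41 in Kas at 24 h, Kas at 48 h, Tsu at 24 h and Tsu at 48 h, beside 0.03, 0.04, -0.03 and -0.00 over all probe sets. The 24 h and 48 h comparisons of an ecotype share their 3 arrays with iron. The smallest differences among the 8 belonged to AT3G19430 in all 4 comparisons.

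Ordered by group mean, Kas at 48 h without iron came first for 7 of the 8 probe sets. AT2G43150 was led by Tsu with iron, at 5.78 ± 1.52 (SD, n = 3), ahead of Kas at 48 h, at 5.43 ± 0.53. For AT1G23720 these 2 groups were level, at 9.58 ± 0.83 in Kas and 9.58 ± 1.0 in Tsu. The first and second groups overlapped for all 8. The lowest group of AT3G54580 was Tsu at 24 h without iron, at 4.94 ± 0.24, and it overlapped the groups next to it, Tsu at 48 h without iron and Kas with iron.

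The spread inside groups was large in the same arrays. Tsu with iron had an SD of 1.44 for AT3G54580, 1.88 for AT4G08410 and 2.11 for the shared probe set, and replicate 2 read highest for each of the 8. In Kas at 24 h without iron, replicate 3 had a mean of 7.67 over the 8 probe sets while the other arrays had 6.03 and 6.02, and it stood near the 48 h arrays, at 7.57 to 8.93. Without that array the median Kas difference at 24 h was 0.40. Without Tsu replicate 2 with iron, the median Tsu differences were -1.85 at 24 h and -1.53 at 48 h.

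An array property moved with these values. The Affymetrix control probe set for 25S ribosomal RNA, which reads residual ribosomal RNA in the labelled sample, gave 10.10, 10.73 and 9.82 in Kas roots with iron, 10.76, 10.94 and 7.14 at 24 h without and 6.12, 6.91 and 5.21 at 48 h without. In Tsu roots it gave 10.80, 8.23 and 10.05 with iron, 11.05, 10.98 and 11.01 at 24 h without and 11.55, 11.12 and 9.25 at 48 h without. In 4 of the 6 root groups the array with the lowest 25S value had the highest mean over the 8 extensin-like probe sets. Over the 18 root arrays Pearson's r between the 25S value and that mean was -0.83 and Spearman's rho -0.82, and r was -0.79 without the 2 arrays farthest from the median 25S value. It was -0.95 over the 9 Kas arrays and -0.85 over the 9 Tsu arrays, and -0.86 for deviations from group means. By ranks the link inside ecotypes was weaker, with Spearman's rho of -0.65 over the Kas arrays and -0.63 over the Tsu arrays. The r of single members ran from -0.86 for AT5G06630 to -0.58 for AT3G19430, while all probe sets ran from -0.60 to 0.64 between the 5th and the 95th percentile. The difference between the 3' and 5' GAPDH control probe sets, 3' minus 5', is larger where RNA is less intact. It had r of 0.69 with the extensin-like mean, and 0.50 for deviations. All probe sets ran from -0.58 to 0.51 with it between the 5th and the 95th percentile. The array median had r of -0.75 with the extensin-like mean. The mean of the 3 root markers was 7.60 to 8.64 on the root arrays, with r of 0.54 and -0.02 for deviations, and the photosystem mean was 4.22 to 5.57, with r of 0.12. Their part in the root differences was not tested.

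**Figure D2:**
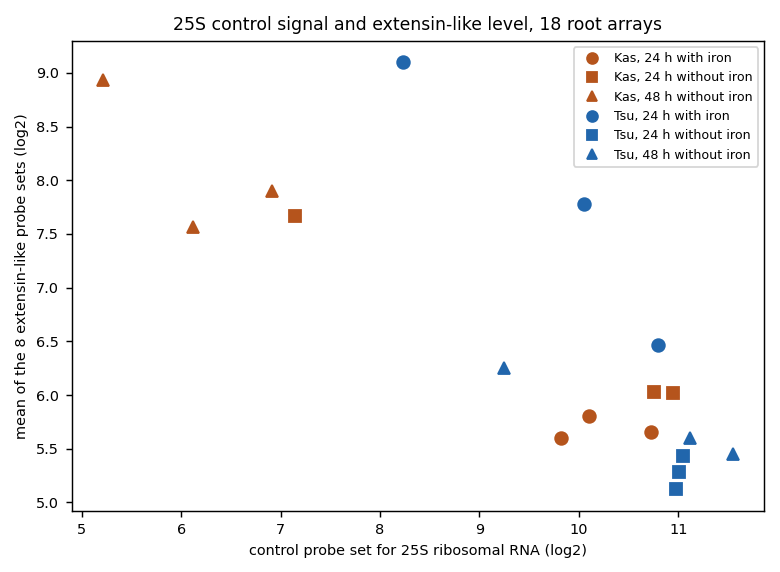
Mean log2 value of the 8 extensin-like probe sets against the log2 value of the 25S ribosomal RNA control probe set on the 18 root arrays. Colour gives the ecotype and marker shape the iron supply and time. Arrays with a low control value tend to have a high mean, with a Pearson r of -0.83, and the highest mean is on a Tsu array with iron whose control value is 8.23.

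With the 25S value as a covariate, the median difference was 0.56 in Kas at 24 h, 0.14 in Kas at 48 h, -1.73 in Tsu at 24 h and -1.84 in Tsu at 48 h. In Kas at 48 h, 4 of the 8 were then above 0 and 4 below, in a range of -0.26 to 0.82. The Kas arrays at 48 h had 25S values of 5.21 to 6.91 and the Kas arrays with iron 9.82 to 10.73. The Tsu arrays at 24 h without iron had 10.98 to 11.05 and the Tsu arrays with iron 8.23 to 10.80. In both comparisons condition and 25S value did not overlap, so the fit with the covariate cannot tell them apart there. Whether the 25S value had a part in the differences was not tested. With the ecotype index as a covariate, the medians were 0.85, 2.46, -2.53 and -2.29 in the same order. Without the arrays between the ecotypes they were 1.06, 2.62 and -2.32 for Kas at 24 h, Kas at 48 h and Tsu at 48 h, resting on 1 Kas array and 2 Tsu arrays with iron, and Tsu at 24 h had no array left.

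**Figure D3:**
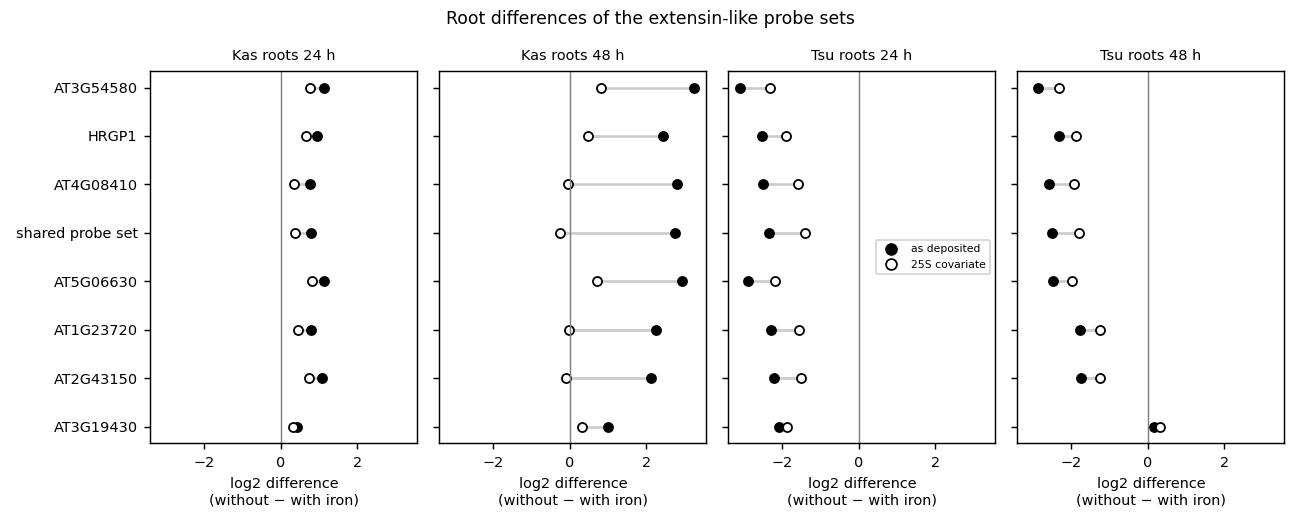
Log2 difference, without minus with iron, of each extensin-like probe set in roots of Kas and Tsu at 24 h and 48 h, as deposited (filled) and with the 25S control value as a covariate (open). The Tsu differences keep their sign under the covariate, and in Kas at 48 h the open points lie from -0.26 to 0.82. In Kas at 48 h and Tsu at 24 h the 25S values with and without iron did not overlap.

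Members rose and fell together from array to array in roots. Leaving out AT3G19430, the 21 pairs of probe sets had r from 0.88 to 0.99 over the 18 root arrays (median 0.94), and from 0.83 to 0.97 for deviations from group means. The 7 pairs with AT3G19430 had r from 0.45 to 0.63, and 0.22 to 0.39 for deviations. In shoots the 21 pairs had r from -0.28 to 0.59, with a median of 0.05. The genes were chosen for a shared pattern of root differences, so the choice favours high r over the 18 root arrays. Deviations from group means leave those differences out. Deviations of the mean of the 8 had r of -0.86 with the ribosomal RNA control value, whose part here was not tested. Shoot values of the 8 were low, at 1.74 to 4.65, so the low shoot r cannot be set against the root r. All these r values share the arrays, and some probe sets may share sequence. By their suffixes, 4 of the 8 (HRGP1, AT4G08410, AT5G06630 and AT1G23720) are of the type that can hold probes matching other transcripts, and the shared probe set is of the type whose probes match several transcripts. AT3G54580, AT2G43150 and AT3G19430 have the plain suffix.

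All 8 probe sets were higher in roots than in shoots in both ecotypes. The choice by root differences favours probe sets with signal in roots, so this comparison is not independent of it. Averaged over the 3 conditions, HRGP1 had a mean of 9.13 in Kas roots and 4.12 in Kas shoots, a difference of 5.01 (SE 0.24, limma adjusted p = 1.24e-18), and 4.50 in Tsu. AT1G23720 differed by 5.04 in Kas and 4.71 in Tsu, AT5G06630 by 4.81 and 3.84, and AT3G19430 by 4.42 and 3.76. AT3G54580 differed by 3.91 and 2.79, and AT4G08410 by 3.72 and 2.63. AT2G43150, at 1.78 and 1.53, and the shared probe set, at 1.41 and 0.92, differed least. Of the 8, 8 passed as higher in roots in each ecotype, beside 37.8% of all probe sets in Kas and 38% in Tsu, and the highest adjusted p was 0.000551 in Kas and 0.0189 in Tsu. That p belonged to the shared probe set in both ecotypes, which no longer passed in Tsu without replicate 2 of Tsu roots with iron, when 7 of 8 passed. Without the arrays between the ecotypes and the 24 h groups without iron, 8 of 8 passed in each ecotype.

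**Figure D4:**
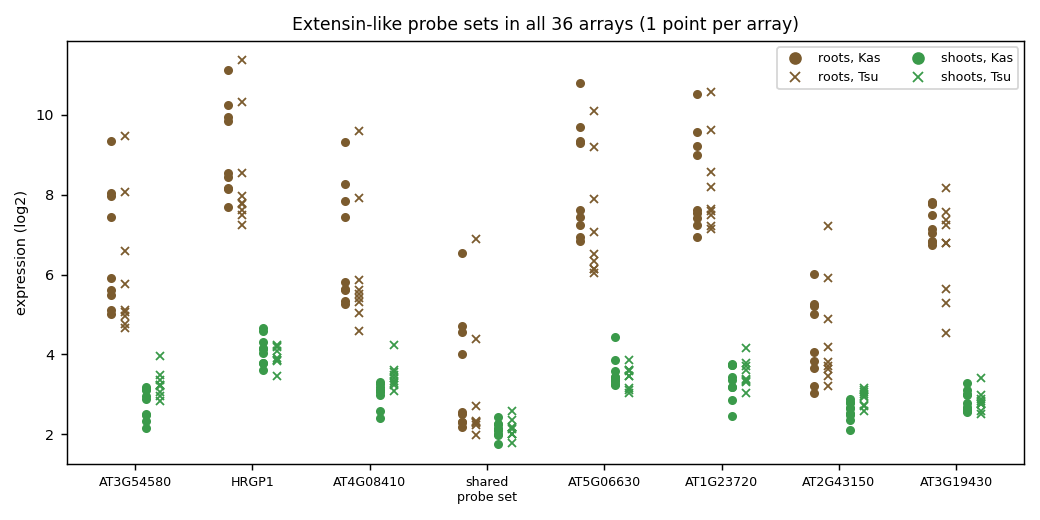
Log2 value of each extensin-like probe set in roots and shoots of both ecotypes, with a point for each of the 36 arrays. Every root value is above every shoot value for 6 of the 8, and AT2G43150 and the shared probe set overlap between the tissues.

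In shoots the iron differences were small. For AT3G54580, the Kas shoot means were 2.90 ± 0.37 (SD, n = 3) with iron, 2.52 ± 0.36 at 24 h without iron and 2.82 ± 0.44 at 48 h. The Tsu shoot means were 3.09 ± 0.34, 3.27 ± 0.08 and 3.41 ± 0.48 in the same order. HRGP1 read 4.00 ± 0.52, 4.11 ± 0.06 and 4.25 ± 0.43 in Kas and 3.80 ± 0.31, 4.13 ± 0.18 and 3.96 ± 0.20 in Tsu. Over the 8 probe sets and 4 shoot comparisons, the differences ran from -0.55 to 0.41, and none of 32 passed in limma, while 5 had an unadjusted p under 0.05. With only the 6 arrays compared in the fit, AT1G23720 passed in Tsu shoots at 24 h (-0.55, adjusted p = 0.0179), and without replicate 3 of Tsu shoots at 48 h the shared probe set passed at 48 h (0.50, adjusted p = 0.0423). The lowest adjusted p of the 32 was 0.112, and the 95% intervals reached from -1.09 to 0.85, so a rise as large as the Kas root median at 48 h (2.60) lay outside all of them. A fall as large as the Tsu root median could not have been read for most, since the shoot values of the 8 were 1.74 to 4.65 and the lowest value on any array was 1.31. Of all probe sets, 1.86% and 4.11% passed in Kas shoots at 24 h and 48 h, and 16.1% and 4.34% in Tsu shoots.

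The change in Kas shoots minus the change in Tsu shoots was tested for each probe set. Values ran from -0.56 to 0.68, none of 16 passed, and 1 had an unadjusted p under 0.05. The lowest adjusted p was 0.134, and the intervals reached from -1.30 to 1.18. The shares of all probe sets that passed were 11.2% at 24 h and 3.94% at 48 h. Shoot readings of these probe sets were low, and none of the 8 remained when dim probe sets were left out.

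Averaged over the 3 conditions, 2 of the 8 were higher in Kas than in Tsu roots, beside 9.5% of all probe sets called higher. These averages contain the root arrays on which the genes were chosen, so the test may not be independent of the choice. AT5G06630 had a mean of 8.36 in Kas and 7.27 in Tsu, a difference of 1.09 (SE 0.30, limma adjusted p = 0.0102). That average covers opposite signs, since Kas was below Tsu with iron (7.01 and 9.06). Without iron Kas was above Tsu, at 8.14 and 6.18 at 24 h and 9.94 and 6.58 at 48 h. AT3G19430 averaged 7.27 in Kas and 6.60 in Tsu, a difference of 0.68 (SE 0.17, adjusted p = 0.00689). With iron it too was lower in Kas (6.80 and 7.24). The Tsu average of AT3G19430 included its low group at 24 h without iron, and all 3 arrays of that group lay between the ecotypes. When arrays between the ecotypes and the 24 h groups without iron were left out, neither passed and the difference of AT3G19430 was -0.13. With the 25S value as a covariate neither passed, at 0.12 (adjusted p = 0.719) and 0.38 (adjusted p = 0.24), and 2 other members passed as lower in Kas, AT1G23720 by -0.89 and AT2G43150 by -1.06. Without the covariate the other 6 had differences from -0.09 for AT2G43150 to 0.67 for HRGP1, none past the threshold. Leaving out replicate 2 of Tsu with iron raised the count to 4, with AT3G54580 at 0.85 (adjusted p = 0.0305) and HRGP1 at 0.89 (adjusted p = 0.0133) added.

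In shoots, 3 of the 8 were lower in Kas than in Tsu on average, a share near the 33.2% of all probe sets called lower. None of the 8 remained in this comparison when dim probe sets were left out. AT3G54580 averaged 2.75 in Kas and 3.26 in Tsu, a difference of -0.51 (SE 0.14, limma adjusted p = 0.00625). AT4G08410 had a difference of -0.47 (adjusted p = 0.00273) and AT2G43150 of -0.33 (adjusted p = 0.00487). None of the 3 passed when all 36 arrays entered 1 fit or when the 25S value was a covariate, and AT3G54580 did not pass without the arrays between the ecotypes and the 24 h groups without iron (-0.39, adjusted p = 0.101). The 25S value itself was 8.51 to 9.91 in Kas shoots and 5.21 to 9.07 in Tsu shoots, and its part in these differences was not tested.

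Other wall genes from lists of related genes were read beside the 8, although most were on no probe set that names 1 gene. Of 13 other extensin-like genes, 5 were measured. AT3G28550 read 6.86, 6.54 and 6.91 in Kas roots with iron and 8.42, 8.28 and 8.50 at 48 h without, and rose by 1.63 (SE 0.23, limma adjusted p = 0.00101). In Tsu it fell by 1.70 at 24 h (adjusted p = 0.000179) and by 1.28 at 48 h (adjusted p = 0.00872). AT1G26250 rose by 1.42 in Kas at 48 h (adjusted p = 0.0442), and AT4G08380 fell by 2.05 in Tsu at 48 h (adjusted p = 0.00704). With the 25S value as a covariate the Kas difference of AT3G28550 was 0.71 and did not pass (adjusted p = 0.242). AT1G26250 did not pass when any 1 of the 6 arrays compared was left out, and its difference was -0.12 with the 25S value as a covariate. AT4G08380 and AT3G28550 did not pass at 48 h in Tsu without replicate 1 at 48 h (adjusted p = 0.0665 and 0.0824), nor with only the arrays compared in the fit (adjusted p = 0.133 and 0.193). Called counts over the 5 were 0, 2 higher, 1 lower and 2 lower in the order Kas 24 h, Kas 48 h, Tsu 24 h and Tsu 48 h. Of all probe sets, 1.94%, 6.73%, 6.98% and 1.62% were called in either direction in that order. The medians over the 5 were 0.73, 1.42, 0.02 and -1.28.

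Leucine-rich repeat extensins join a leucine-rich repeat domain to an extensin domain. Of 5 genes entered in that list, 2 were measured, AT3G24480 and AT4G18670. AT3G24480 rose by 1.22 in Kas roots at 48 h (limma adjusted p = 0.0295), and the difference of AT4G18670 there was 1.53 (adjusted p = 0.0911). AT3G24480 lost its call when any 1 of the 6 arrays compared was left out, except replicate 2 with iron, and its difference was 0.03 with the 25S value as a covariate. Without replicate 1 at 48 h, AT4G18670 passed instead (2.06, adjusted p = 0.0432). In Tsu shoots AT4G18670 read 5.42, 4.70 and 5.12 with iron and 3.62, 3.66 and 3.35 at 24 h without, and it fell by 1.53 (adjusted p = 9.79e-05) while AT3G24480 fell by 0.53 (adjusted p = 0.0281). All 3 Tsu shoot arrays at 24 h without iron lay between the ecotypes. Kas minus Tsu change in shoots at 24 h was 1.47 for AT4G18670 (adjusted p = 0.00579) and 0.85 for AT3G24480 (adjusted p = 0.0194). The extensin-like members had no call there. Of all probe sets, 16.1% passed in Tsu shoots at 24 h and 11.2% for the difference in change at 24 h. Over the 18 shoot arrays, r with the 25S value was -0.71 for AT4G18670 and -0.84 for AT3G24480. For deviations from group means it was -0.71 and -0.67. The part of the 25S value in these shoot differences was not tested.

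Of 38 root hair genes 7 were measured, among them EXPA7 and EXPA18, expansins that loosen root hair walls, and XTH26, a xyloglucan-modifying enzyme. In Kas roots all 7 had differences above 0 and in Tsu roots all 7 below 0, with medians of 0.60, 0.36, -0.81 and -0.92. Over all probe sets the medians were 0.03, 0.04, -0.03 and -0.003. The share of all probe sets with these signs was not counted, so the sign counts have no background beside them. The single call was SCN1, which fell by 0.49 in Tsu at 24 h (limma adjusted p = 0.0333), and it lost the call without any 1 of the arrays compared except replicate 3 with iron. Their deviations from group means had r from -0.36 to 0.10 with the mean of the 8 extensin-like probe sets. None of 4 extensin-modifying enzymes, including XEG113, an arabinosyltransferase, passed in the 4 root comparisons, and 1 had an unadjusted p under 0.05 in Tsu at 24 h. No gene of the lists for proline-rich wall proteins, endodermis, stele, root cap or cell division was measured on a probe set naming 1 gene.

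**Figure D5:**
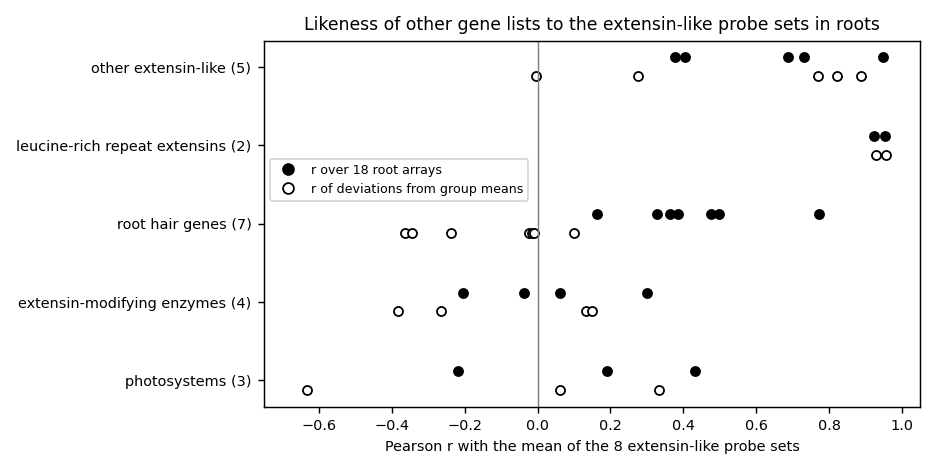
Pearson r of each measured gene of 5 lists with the mean of the 8 extensin-like probe sets over the 18 root arrays (filled) and for deviations from group means (open). The 2 leucine-rich repeat extensins have r of 0.92 and 0.95, and the 7 root hair genes 0.16 to 0.77.

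The 10 single-gene probe sets most like the set over the 18 root arrays, by Pearson r with the mean of the 8 after centring each, were led by AT3G24480 and AT3G28550, both at 0.95. AT4G26020 followed at 0.93, but it was dim, with averages of 1.90 in roots and 1.93 in shoots, near the bottom of the scale. AT2G26110, AT4G18670, AT4G00890 and AT5G13560 were at 0.92, and AT4G29440, AT5G21020 and AT5G59170 at 0.91. Over the 12 group means, roots and shoots together, r was 0.97 for AT3G28550, 0.97 for AT4G00890 and 0.98 for AT5G13560, but -0.06 for AT4G18670, -0.06 for AT4G29440 and -0.21 for AT5G59170. AT5G59170 read 4.42 in roots and 4.87 in shoots on average, while AT3G28550 read 7.41 and 2.24. Their r with the 25S value over the root arrays was -0.84 for AT5G59170 to -0.76 for AT5G13560, a sign that the choice by likeness to the member mean fixes, since that mean had r of -0.83 with it.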

How the data were processed

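Each deposited value is the log2 expression of a probe set on 1 array, in a range of 1.31 to 13.47. How the authors corrected background, summarised probes and normalized is not given in the sources used here. The number of arrays limits the precision. All value columns were mapped to samples by title (0 left unmapped), 0 pairs of arrays were identical, and the highest correlation between arrays was 0.996.

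Of 22810 probe sets, 64 controls were left out and 22746 tested. Names came from the platform annotation, matched by Entrez identifier to RefSeq's TAIR10.1 table, which also gave chromosomes and neighbours. Of 14016 annotated probe sets, 13513 named 1 gene (13436 matched) and 503 several, and 8730 are unnamed here. No sequences were used. limma 3.58.1 in R 4.3.3 (lmFit, eBayes, two-sided, 1 mean per group) was fitted on the 18 arrays of a tissue, or all 36 for roots against shoots, and a call needed an adjusted p under 0.05 by Benjamini-Hochberg over all 22746 tested. The procedure was tested on simulated data.

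The members and the 11 gene lists were chosen with earlier results of these data known. Genes named are all members, list members with their values (of those called, up to 4 per list and comparison) and the 10 most alike over the root arrays. Replicate numbers did not pair the samples within a tissue: in 0 of 30 pairs of groups were all same-number correlations above 0.1. Pairing of roots with shoots was not checked, and the fit for roots against shoots takes them as unpaired. Alternatives were each array left out, the replicate number as a block, quantile normalization, median centring, a filter on dim probe sets, other sets of arrays, the ecotype index as a covariate and, chosen after seeing the data, the 25S covariate.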

Additional observations from a re-analysis of the deposited data

Results flagged for a closer look

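For 11 results, all 3 Kas root arrays without iron lay above the 3 with iron while all 3 Tsu root arrays without iron lay below theirs. The genes were chosen for this pattern, and the difference between the ecotypes was not tested. At 24 h the Kas change minus the Tsu change on the log2 scale was 4.22 for AT3G54580, 3.49 for HRGP1, 4.03 for AT5G06630, 3.29 for AT2G43150 and 2.52 for AT3G19430. At 48 h it was 6.13 for AT3G54580, 4.77 for HRGP1, 5.41 for AT4G08410, 5.25 for the shared probe set, 5.42 for AT5G06630 and 4.03 for AT1G23720.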

How the results depend on the processing

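With the replicate number as a block, the 10 tested comparisons kept their counts of members called, 2 for Kas against Tsu roots, 3 for the shoots, 8 for roots against shoots in each ecotype and 0 elsewhere, and the median root differences stayed at 0.88, 2.60, -2.43 and -2.41. The root comparisons over all probe sets gave 409, 1520, 1511 and 363 calls with the block, in the order Kas 24 h, Kas 48 h, Tsu 24 h and Tsu 48 h, and the root hair genes 2 in Tsu at 24 h and 1 at 48 h. Quantile normalization and median centring changed no count of members. Under these the root hair genes had 1 call in Kas at 48 h. Without arrays between the ecotypes and the 24 h groups without iron, 0 members passed for Kas against Tsu roots, and AT3G19430 reversed to -0.13. For Kas against Tsu shoots 0 passed with all 36 arrays in 1 fit and 0 with the 25S covariate. For roots against shoots 3 members remained, and all 3 passed, in each ecotype when dim probe sets were left out. With only the arrays compared, 1 member passed in Tsu shoots at 24 h.

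Calls over all probe sets in the same 4 root comparisons were 442, 1531, 1587 and 368. They became 22, 940, 684 and 15 with only the arrays compared, and 1328, 2908, 3221 and 1349 with all 36 arrays. The ecotype index gave 705, 547 and 231 for Kas 24 h, Tsu 24 h and Tsu 48 h, the 25S covariate 11, 902 and 239 for Kas 48 h, Tsu 24 h and Tsu 48 h, and leaving out arrays between the ecotypes 822 for Kas 24 h. The 25S covariate took the median member difference in Kas at 48 h to 0.14, with AT4G08410 reversed to -0.057, the shared probe set to -0.26, AT1G23720 to -0.030, AT2G43150 to -0.089 and, outside the set, AT1G26250 to -0.12. The cause of these shifts was not tested.

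Other extensin-like genes had 1 call in Kas at 24 h without dim probe sets or with the 25S covariate and 2 with all 36 arrays. In Kas at 48 h they had 4 without dim probe sets, with only the arrays compared or with all 36, 1 with the index or without arrays between the ecotypes, and 0 with the 25S covariate. In Tsu at 48 h they had 0 with only the arrays compared. Leucine-rich repeat extensins had 2 calls in Kas at 48 h with all 36 arrays and 0 with the index, the 25S covariate or without arrays between the ecotypes, and with all 36 arrays 1 in Tsu at each time. Root hair genes had, in Kas at 24 h, 1 with all 36 arrays and 2 with the index or without arrays between the ecotypes. In Kas at 48 h they had 2 with all 36 and 1 without dim probe sets, with the index or without arrays between the ecotypes. In Tsu they had 4 at both times with all 36, and at 24 h 0 with only the arrays compared or the index.

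Leaving out single arrays gave 2 to 4 members for Kas against Tsu roots, 0 to 1 for Tsu shoots at 48 h and 7 to 8 for Tsu roots against shoots. Calls over all probe sets ran from 12 to 1567, 417 to 2276, 495 to 2266 and 55 to 461, and median member differences from 0.40 to 1.23, 2.06 to 2.97, -3.32 to -1.85 and -3.08 to -1.53. List counts ran, for other extensin-like genes, from 1 to 1 in Kas at 48 h and 0 to 2 in Tsu at 48 h. For leucine-rich repeat extensins they ran from 0 to 1 in Kas at 48 h, 0 to 2 in Tsu at 24 h and 0 to 1 in Tsu at 48 h, and for root hair genes from 0 to 2, 0 to 3, 0 to 2 and 0 to 4.

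Not run were the filter on dim probe sets in shoots, where no member remained, and, without arrays between the ecotypes, Tsu at 24 h in roots and shoots, where no array remained, with the comparisons that use those groups (the shoot contrast of changes at 24 h, Kas against Tsu and Tsu roots against shoots). For the averages the 24 h groups without iron were left out too. Kas against Tsu uses all arrays of a tissue, so a fit on only the arrays compared is the same fit, and no ecotype index was fitted there. The limits are 3 arrays a group, unknown normalization, low shoot signal of all 8 probe sets and probe sets of types that can share sequence.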
